A study of Mus musculus with 19 samples.

Results

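The integrin and laminin subunits are the genes that code for the chains of integrins and of laminins. Integrins are cell-surface receptors, some for laminins and others for other ligands. They were taken by gene name from the array annotation: Itga or Itgb followed by a number or by d, e, l, m, v or x, and Lama, Lamb or Lamc followed by a number. Of 27793 gene names on the array, 36 met this rule, with 81 of 41174 probes. They comprised 17 integrin alpha chains, 8 integrin beta chains and 11 laminin chains. Another 6 names that only begin like a subunit's, such as Itgb1bp2 and Itgbl1, were not counted. Where a gene had several probes, the probe with the highest mean normalised signal over all 19 arrays stood for it.

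Total RNA was measured on 1-colour mouse arrays in 4 groups. The WT group (n = 6) was C2C12, a mouse myoblast line, stably carrying the empty plasmids pIRES neo3 and pIRES hyg3. The HDAC4&5 group (n = 6) was C2C12 that expressed wild-type human HDAC4 and HDAC5 from those plasmids. Both lines were kept under 500 ug/mL hygromycin B and 500 ug/mL geneticin in medium with 10% serum, and were harvested after 48 h at about 80% confluency. The sources used here do not say how many clones each line holds. The Con group (n = 3) was soleus muscle of male heterozygous mice (db -/+), and the db group (n = 4) was soleus of male db/db mice (labelled db +/+), an obese line with a mutated leptin receptor gene. The strain was C57BL6J, the controls were littermates, and all were 12 weeks old and fasted for 5 h. Nothing in the labels says that the arrays of a cell line came from separate cultures, so p-values there measure the spread between these samples, which may be technical. The study gives fewer replicates per array group than the labels list for both cell lines and for db, so how many of these arrays are independent is not known.

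Integrins are pairs of 1 alpha and 1 beta chain that span the cell membrane and tie the matrix outside to the actin cytoskeleton inside. Laminins are trimers of an alpha, a beta and a gamma chain and form the sheet of the basement membrane that wraps each muscle fibre. In muscle the best known pairing is that of the alpha-7 and beta-1 integrin chains with laminin that holds the alpha-2 chain, and loss of either partner causes muscular dystrophy. HDAC4 and HDAC5 are class IIa histone deacetylases, which are known to bind MEF2 factors and to hold down genes of muscle differentiation.

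Values below are normalised log2 signals, in which 0 is the 75th percentile of an array. A level is given per probe and is not compared between genes, since probes differ in how strongly they bind. A probe was read as measured where the scanner software called it well above background. Differences between groups come from limma fitted over all genes, and the adjusted p-values are Benjamini-Hochberg values over all genes tested. The 75th percentile of the processed signal ran from 494 to 1691 on C2C12 arrays and from 153 to 686 on soleus arrays, and 46.8% to 57.5% of spots were well above background. WT cells had 5 of the 7 myoblast markers above background on every array with a usable spot, Myf5 and Pax7 being the exceptions. Soleus had all 7 muscle fibre markers. Neither list was particular to its group, as WT cells also had 6 of the 7 fibre markers and Con soleus 5 of the 7 myoblast markers. HDAC4&5 cells had 2 of the 7 fibre markers. In HDAC4&5 cells Myod1, the factor that sets muscle identity, was above background on no array, so the myoblast name rests there on 3 of the 7 markers. The mouse Hdac5 probe was higher in HDAC4&5 cells by 1.42 ± 0.27 (log2, SE, limma adjusted p = 0.000389) and the mouse Hdac4 probe differed by -0.05 ± 0.05 (adjusted p = 0.347). How far these mouse probes read the human transgenes was not tested.

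The probes behind the largest fall in HDAC4&5 cells, behind the muscle laminin receptor and behind the laminin chain found in muscle but not in the cells are shown first, as they define what was measured. Each is 60 bases long, is written 5′ to 3′ from the deposited array annotation, and is placed on mm9.
Lama2 (chr10:26704229-26704288, minus strand): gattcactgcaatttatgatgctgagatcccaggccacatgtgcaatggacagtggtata
Itga7 (chr10:128390852-128390911, plus strand): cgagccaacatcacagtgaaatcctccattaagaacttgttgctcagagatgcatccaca
Lama4 (chr10:38825794-38825853, plus strand): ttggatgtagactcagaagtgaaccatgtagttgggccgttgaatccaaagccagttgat
The Itga7 and Lama4 probes each hold 1 reading frame without a stop codon over their whole length and the Lama2 probe holds 2.

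The 250 bases before the gene start are shown for members that fell or rose in HDAC4&5 cells and have 1 promoter entry, 2 that fell (Lama2, Lama5) and 2 that rose (Itgb5, Itgb7). They are from RefSeq on GRCm38.p6, are written 5′ to 3′ along the gene, and have E-boxes (CANNTG, the same on both strands) in capitals.
Lama2 (chr10:27616943-27617192, minus strand): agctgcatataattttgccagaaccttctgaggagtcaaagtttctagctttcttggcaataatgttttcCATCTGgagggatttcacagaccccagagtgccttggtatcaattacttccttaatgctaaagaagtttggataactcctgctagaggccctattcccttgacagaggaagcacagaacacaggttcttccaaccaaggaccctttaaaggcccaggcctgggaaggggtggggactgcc
Lama5 (chr2:180225860-180226109, minus strand): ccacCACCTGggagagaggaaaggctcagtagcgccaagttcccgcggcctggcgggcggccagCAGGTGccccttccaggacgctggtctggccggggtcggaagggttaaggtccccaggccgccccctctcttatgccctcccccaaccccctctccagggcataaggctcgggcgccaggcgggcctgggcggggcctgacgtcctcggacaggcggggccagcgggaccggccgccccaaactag
Itgb5 (chr16:33829415-33829664, plus strand): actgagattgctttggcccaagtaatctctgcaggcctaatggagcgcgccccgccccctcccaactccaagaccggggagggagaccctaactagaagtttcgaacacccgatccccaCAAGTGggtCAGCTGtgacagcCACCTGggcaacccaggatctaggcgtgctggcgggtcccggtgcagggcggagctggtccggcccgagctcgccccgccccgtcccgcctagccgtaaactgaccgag
Itgb7 (chr15:102231936-102232185, minus strand): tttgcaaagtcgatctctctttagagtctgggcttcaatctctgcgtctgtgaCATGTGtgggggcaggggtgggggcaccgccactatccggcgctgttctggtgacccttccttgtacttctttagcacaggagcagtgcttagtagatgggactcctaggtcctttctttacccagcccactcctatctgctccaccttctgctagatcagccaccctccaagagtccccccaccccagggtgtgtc
E-boxes are the letters that myogenic bHLH factors such as MyoD bind. The windows held 1 E-box for Lama2, 2 for Lama5, 3 for Itgb5 and 1 for Itgb7, so both directions of change had them. Of the 26 promoter windows of 23 members, 80.8% held at least 1 E-box, beside 66.2% of all 32851 windows. The MEF2 element, searched by its usual consensus on both strands, lay in 3.85% of the member windows, which was the single window of Itga10, beside 2.92% of all windows. None of the printed windows held it.

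Detection separated the cells from the muscle. In WT cells 24 of 36 members were well above background on every array, in HDAC4&5 cells 18, in Con soleus 23 and in db soleus 21. Itga2, Itgam and Lama1 were above background on none of the 19 arrays. By the probes reported, Itga1, Itga11, Itga9 and Lama4 were above background on none of the 12 C2C12 arrays and on all 3 Con arrays, and a second Itga9 probe was above background on 1 WT array. Itga1 and Itga11 code for collagen-binding alpha chains, Itga9 for a partner of beta-1 that binds tenascin, and Lama4 for the laminin alpha chain of blood vessel walls. Itga2b, Itga4 and Itgb8 were above background on all 6 WT arrays and on no soleus array, though 2 other Itgb8 probes each were on 1 db array.

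**Figure D1:**
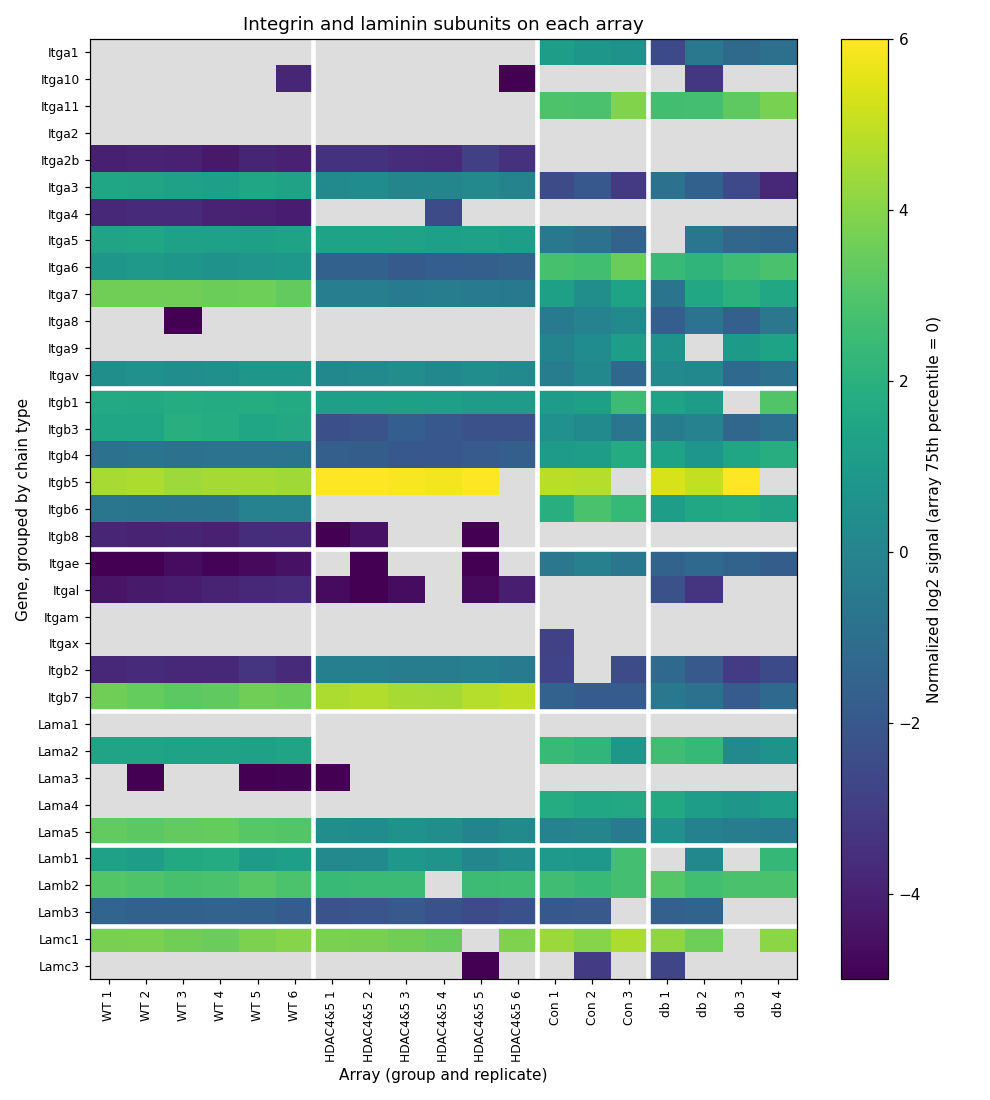
Normalised log2 signal of 35 of the 36 integrin and laminin genes (rows, by chain type) on each of the 19 arrays (columns, by group). Grey cells were not well above background or were left out as outlier spots. The rows of Itga1, Itga11 and Lama4 are filled in soleus alone, and those of Lama2 and Itgb6 are grey in the 6 HDAC4&5 arrays.

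The first comparison asked how the laminin and integrin chains differ in myoblasts that overexpress HDAC4 and HDAC5. Most of the chains that were measured were lower, led by the laminin alpha-2 chain Lama2 and by the integrin chains Itgb6, Itga7 and Itgb3. The leukocyte-type beta chains Itgb2 and Itgb7 and the vitronectin receptor chain Itgb5 were higher. Of 24 members tested, 18 fell, 4 rose and 2 did not pass the test, and 12 were dim in both groups and not tested. All 24 were above background on every WT array, but 18 were so on every HDAC4&5 array. The others (Itga4, Itgae, Itgal, Itgb6, Itgb8 and Lama2) entered through WT alone, where they were high, so the filter itself favoured their falls. With both groups required to be above background, 18 members were tested and 16 passed, the 4 that rose among them. Of all 12394 genes tested that way, 55.7% of those that passed were higher. Over all 14147 genes tested in the main fit, 69.3% passed, 32.8% lower and 36.5% higher. Of the genes that passed, 52.6% were higher, and 38.2% were in the table of ratios that the authors deposited. The median difference was -0.85 over the members and 0.05 over all genes. The values of the groups did not overlap for 19 of the 24 members, beside 54.6% of all genes. All 22 members that passed kept their sign on each of the 3 slides. A further 11 probes of 10 of these genes were above background throughout a group, and each had the sign of the probe reported. Both counts are over genes that passed on these same arrays, so neither is separate support. Dimmer probes of Itgav and Itgae had the other sign, as given with these genes.

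Both laminin alpha chains tested fell, Lama2 further than any other member. Lama2, the alpha chain of the laminin of the muscle fibre sheath, was between 1.30 and 1.44 (median 1.39) on the 6 WT arrays. On the 6 HDAC4&5 arrays it lay between -6.78 and -6.31 (median -6.50) and was above background on none. Its fall was at least 107-fold (adjusted p = 2.86e-16), a lower limit taken against the lowest signal called above background on each HDAC4&5 array. The limit holds for this background correction alone: the fall was 19.1-fold with another, normexp, and -4.63 (log2) in the deposited ratios, where 1 HDAC4&5 array was listed. Lama5, the alpha chain of many epithelial and vascular basement membranes, ran from 3.06 to 3.40 (median 3.30) in WT and from -0.02 to 0.63 (median 0.40) in HDAC4&5 cells. That was a 7.53-fold fall, -2.91 ± 0.10 (log2, SE, adjusted p = 2.20e-11). Lama5 was therefore the laminin alpha chain that stayed above background on every HDAC4&5 array, while Lama1 and Lama4 were above background on none and Lama3 on 1.

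The beta and gamma chains join an alpha chain in each laminin trimer. Lamb1 differed by -0.95 ± 0.16 (log2, SE, adjusted p = 0.000168), Lamb3 by -0.60 ± 0.08 and Lamb2, measured on 5 HDAC4&5 arrays, by -0.46 ± 0.07, and all 3 passed as falls. Lamb3 did not pass with normexp, at -0.22. Lamc1, the gamma chain shared by most laminins, had a mean of 3.75 ± 0.17 (SD, n = 6) in WT and 3.69 ± 0.17 (SD, n = 5, 1 array left out as an outlier spot) in HDAC4&5 cells. Its difference of -0.06 ± 0.10 (SE) did not pass the test (adjusted p = 0.598).

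Among integrin alpha chains other than the leukocyte chains Itgae, Itgal, Itgam and Itgax, which are given below, 5 fell, 1 rose and 1 did not pass. Itga7, the alpha chain of the muscle laminin receptor, ran from 3.38 to 3.62 (median 3.59) in WT and from -0.55 to -0.30 (median -0.37) in HDAC4&5 cells. It fell 15.4-fold (-3.94 ± 0.06, adjusted p = 1.08e-14), and its second probe differed by -3.88. Itga6, another laminin-binding chain, fell from between 0.64 and 0.94 (median 0.83) to between -1.89 and -1.49 (median -1.61), a 5.47-fold fall (adjusted p = 4.51e-12). Itga3, also a laminin-binding chain, differed by -1.24 ± 0.08 (log2, SE, adjusted p = 1.72e-08). Itga3, Itga6 and Itga7 were thus all lower. Itgav, which pairs with several beta chains, differed by -0.33 ± 0.08 (log2, SE) and passed as a fall, but its second probe, far dimmer, rose (0.67, adjusted p = 0.0146).

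Itga4, a chain of fibronectin and VCAM-1 receptors, ran from -4.11 to -3.66 (median -3.85) in WT and from -7.91 to -2.47 (median -6.84) in HDAC4&5 cells, where 1 of 6 arrays was above background. That array was higher than every WT array, so the groups overlapped, and the difference of -2.32 ± 0.72 (adjusted p = 0.011) was close to 0 with normexp (-0.09, adjusted p = 0.855) and was 0.90 in the deposited ratios, where 1 HDAC4&5 array was listed. Itga2b, the platelet chain, rose by 0.59 ± 0.11 (log2, SE, adjusted p = 0.000444) from a low signal, and did not pass in the deposited ratios (0.41, adjusted p = 0.0633). Itga5, the fibronectin receptor chain, was 1.35 ± 0.09 (SD, n = 6) in WT and 1.28 ± 0.11 (SD, n = 6) in HDAC4&5 cells, a difference that did not pass (adjusted p = 0.359).

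Of the 6 integrin beta chains other than the leukocyte chains Itgb2 and Itgb7, which are given below, 5 fell and 1 rose. Itgb6, which pairs with the alpha-v chain and is best known from epithelia, ran from -0.78 to -0.12 (median -0.70) in WT and from -7.88 to -6.66 (median -7.32) on the 5 HDAC4&5 arrays with a usable spot. It was above background on none of these and fell at least 32.1-fold (adjusted p = 2.77e-11), and its second probe differed by -6.13. With normexp the fall was 8.26-fold. In the deposited ratios Itgb6 was at 0.76, from the 1 HDAC4&5 array listed, whose spot was an outlier on the scanner. Epithelial markers had mean levels of -4.29 to -3.96 in WT and of -5.37 to -4.64 in HDAC4&5 cells, with 2 lower and 1 higher of 3 tested and Cdh1 above background on no C2C12 array. Their part in the fall of Itgb6 was not tested. Itgb3, the partner of alpha-v in the vitronectin receptor, fell from between 1.51 and 1.88 (median 1.57) to between -2.31 and -1.73 (median -2.23), a 13.7-fold fall (-3.77 ± 0.11, adjusted p = 3.63e-12). Its second probe differed by -1.44, the same way and by less, and the fall was 8.99-fold with normexp. Itgb8 ran from -3.98 to -3.56 (median -3.84) in WT and from -6.50 to -4.45 (median -5.41) in HDAC4&5 cells, with no overlap. It differed by -1.63 ± 0.26 (adjusted p = 9.40e-05) and by -0.02 (adjusted p = 0.962) with normexp. The second Itgb8 probe was at -1.18 and did not pass (adjusted p = 0.127).

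Itgb4, the partner of alpha-6 in hemidesmosomes, differed by -1.01 ± 0.07 (log2, SE) and passed as a fall. Itgb1, the partner of most laminin- and collagen-binding alpha chains, differed by -0.59 ± 0.05 (adjusted p = 9.10e-08), and by -0.02 on its second probe, which did not pass (adjusted p = 0.896). Itgb5, another alpha-v partner, rose from a mean of 4.51 ± 0.09 (SD, n = 6) to 5.96 ± 0.12 (SD, n = 5), a 2.72-fold rise (adjusted p = 1.59e-09). Of the chains that pair with alpha-v, Itgb3 and Itgb6 were thus lower and Itgb5 higher. Itgb8, which also pairs with it, was lower in the main fit but at -0.02 with normexp.

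The chains named for leukocytes were mixed, 2 higher and 2 lower of 4 tested. Itgb2, the beta chain of leukocyte integrins, ran from -3.76 to -3.33 (median -3.72) in WT and from -0.46 to -0.23 (median -0.30) in HDAC4&5 cells, with no overlap. It rose 10.1-fold (3.34 ± 0.08, adjusted p = 4.73e-13), and 5.59-fold with normexp. Itgb7, the beta chain of lymphocyte homing receptors, rose 2.36-fold (adjusted p = 4.62e-08). Itgal and Itgae, which pair with these chains in leukocytes, differed by -0.66 ± 0.16 and -0.76 ± 0.18 (log2, SE) and passed the test as falls, but turned to 0.27 and 0.32 with normexp and did not pass. A second Itgae probe, above background on no C2C12 array, was at 0.96. Itgam and Itgax were above background on no C2C12 array. Of the 8 leukocyte markers 4 were tested, 1 higher and 2 lower, and Ptprc and Csf1r were above background on no C2C12 array. The marker that rose, the lysozyme gene Lyz2, was above background on no WT array and on all 6 HDAC4&5 arrays, at least 4.22-fold higher (adjusted p = 1.12e-08), and its part in the rise of Itgb2 was not tested. The mean level of the 8 leukocyte markers ran from -6.14 to -5.13 in WT and from -6.15 to -5.07 in HDAC4&5 cells.

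**Figure D2:**
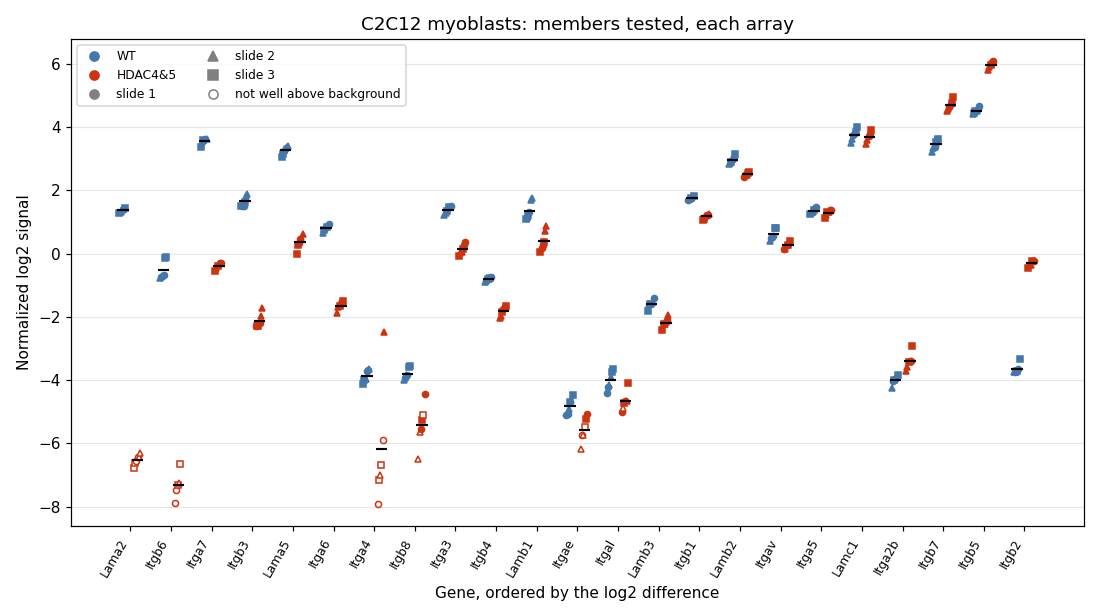
Normalised log2 signal of 23 of the 24 members tested in C2C12 cells, 1 symbol per array (blue WT, red HDAC4&5, shape by slide, open where not well above background), with bars at the group means and genes ordered by the log2 difference. Lama2 and Itgb6 fall to open symbols in the HDAC4&5 arrays, and Itgb7, Itgb5 and Itgb2 are higher there.

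The partners of these chains, inside the cell and in the matrix, are read beside the 32.8% of all genes that fell and the 36.5% that rose. Integrin adaptors gave 12 lower and 6 higher of 21 tested, with a median of -0.30. Itgb1bp2, the muscle protein melusin, differed by -3.58 ± 0.24 and Tns1, a tensin, by -1.89 ± 0.11 (log2, SE), while Tln2, the talin of muscle attachment sites, rose by 1.89 ± 0.04. Itgb1bp2 was above background on 1 of 6 HDAC4&5 arrays and did not pass with normexp (-0.61). Parvg, the parvin of blood cells, rose at least 3.59-fold from no WT array above background. Basement membrane partners gave 5 lower and 1 higher of 10, led by Nid2, a laminin-binding nidogen (-6.12 ± 0.16, above background on 3 of 6 HDAC4&5 arrays), and Col4a5, a collagen IV chain (-3.38 ± 0.57, above background on 1 of 5 HDAC4&5 arrays; 1.69 in the deposited ratios). With normexp Nid2 fell 12.8-fold and Parvg rose 2.19-fold. Agrn, agrin, was higher by 1.57 ± 0.08 over 4 HDAC4&5 arrays, and was at -0.10 on its second probe and -1.28 as a mean of its probes, neither of which passed.

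Laminin receptors other than integrins gave 3 lower and 2 higher of 7, with a median of -0.17. Bcam, a receptor for laminins with the alpha-5 chain, fell at least 4.72-fold, though it did not pass with normexp (-0.67). The syndecan Sdc2 differed by -0.51 ± 0.07 and by 0.066 on its second probe, which did not pass, and Rpsa and Sdc3 rose by 0.57 ± 0.16 and 0.54 ± 0.08 (log2, SE). Rpsa did not pass with normexp (0.43), in the deposited ratios (0.39) or on slide 2 or slide 3 alone. Other integrin ligands gave 6 lower and 1 higher of 8, with Npnt (nephronectin) at least 22.9-fold lower, Postn (periostin) at -4.52 ± 0.06 and Icam1, a ligand of leukocyte integrins, higher by 0.81 ± 0.09. The second Postn probe was at -0.62 and did not pass (adjusted p = 0.451), and Npnt fell 5.07-fold with normexp. Myoblast markers moved with these groups: all 5 tested fell, and their mean level ran from 0.87 to 1.78 in WT and from -3.97 to -3.43 in HDAC4&5 cells. Muscle fibre markers gave 5 lower and 1 higher of 6 tested. Their mean level ran from -1.55 to -0.47 in WT and from -5.16 to -4.70 in HDAC4&5 cells. Fibroblast marker levels ran from -2.06 to -1.71 in WT and from -1.13 to -0.79 in HDAC4&5 cells. The part of any of these marker groups in these results was not tested.

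The second comparison asked whether the same chains differ in soleus muscle of db/db mice. None of the 24 members tested passed, beside 1 of 13049 genes (0.00766%). In simulated data for this comparison the fit missed most changes of 1 and 2 log2. At an unadjusted p under 0.05 limma gave 4 members, all lower in db, beside 6.31% of all genes, 3.34% lower and 2.97% higher. With the slide as a block 0 members passed, beside 0.307% of all genes. The groups did not overlap for 5 of the 24 members, beside 10.4% of all genes. The median difference was -0.23 over the members and -0.02 over all genes.

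Itga1, the collagen-binding chain found on vessels and stromal cells, had the smallest p among members. It was 1.12, 0.83 and 0.62 in Con mice 1 to 3 and -2.52, -0.61, -1.22 and -0.93 in db mice 1 to 4. The groups did not overlap, and the difference was -2.17 ± 0.47 (log2, SE, limma adjusted p = 0.353). Its other 3 probes had differences of -1.39, -0.71 and -1.42, and that of the reported probe was -2.54 on the first slide and -1.69 on the second. With the slide as a block the difference of the reported probe was -2.20 (limma adjusted p = 0.0979).

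Itgae, the alpha chain of the receptor by which lymphocytes hold to epithelia, was -0.63, -0.19 and -0.68 in Con and -1.50, -1.26, -1.52 and -1.74 in db. The groups did not overlap, and the difference was -0.999 ± 0.278 (log2, SE, adjusted p = 0.572). Itga8, a partner of beta-1 that binds nephronectin, was -0.43, -0.13 and 0.21 in Con and -1.71, -0.79, -1.62 and -0.62 in db. All db arrays were below all Con arrays, with a difference of -1.07 ± 0.38 in the fit (adjusted p = 0.681).

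Itgb6 was 1.94, 2.83 and 2.36 in Con and 1.11, 1.59, 1.74 and 1.45 in db, also without overlap, with a difference of -0.91 ± 0.32 (adjusted p = 0.681). Itgb3 was 0.58, 0.22 and -0.69 in Con and -0.37, -0.14, -1.37 and -0.996 in db, and these groups overlapped (-0.76 ± 0.44, adjusted p = 0.912). Itgb5, the fifth member without overlap, was 4.86 and 4.76 on the 2 Con arrays with a usable spot and 5.32, 5.00 and 6.52 on 3 db arrays (0.80 ± 0.54, adjusted p = 0.947). Within slides Itgae, Itga8, Itgb6 and Itgb3 were lower in db on both, from -0.49 for Itgb3 on the second slide to -1.33 for Itga8 on the second. With the slide as a block their limma adjusted p-values were, in that order, 0.102, 0.175, 0.173 and 0.222.

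Neither partner of the muscle laminin receptor passed the test. Lama2 was 2.43, 2.23 and 0.82 in Con and 2.62, 2.39, 0.27 and 0.63 in db. Its values fell into those of the first slide, 2.23 to 2.62, and those of the second, 0.27 to 0.82, in both groups alike, and the fit gave -0.35 ± 0.70 (adjusted p = 0.983). Itga7 was 1.25, 0.43 and 1.37 in Con and -0.78, 1.60, 2.06 and 1.59 in db, a difference of 0.10 ± 0.68 (adjusted p = 0.993). Without db mouse 1 the difference was 0.73 (adjusted p = 0.892), and the other 3 db values lay above all Con values. Lamb1 had the largest difference among members, -2.50 ± 1.82 (adjusted p = 0.947), with 1 db array at -5.44 that was not above background and 1 further db array left out as an outlier spot. Without db mouse 1 it was -0.28.

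Endothelial markers, all 6 above background on every soleus array, had mean levels of 1.43 to 2.25 in Con and 0.64 to 1.45 in db, and 3 of 6 were lower in db at an unadjusted p under 0.05. Adipocyte marker levels ran from 1.87 to 2.69 in Con and from 2.75 to 4.07 in db. Of these 5 markers Lep, the leptin gene, differed most, by 3.62, and Fabp4 alone went the other way, by -0.46. The part of either marker group in the differences above was not tested. In whole muscle, fewer cells of a type and less RNA per cell cannot be told apart.

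**Figure D3:**
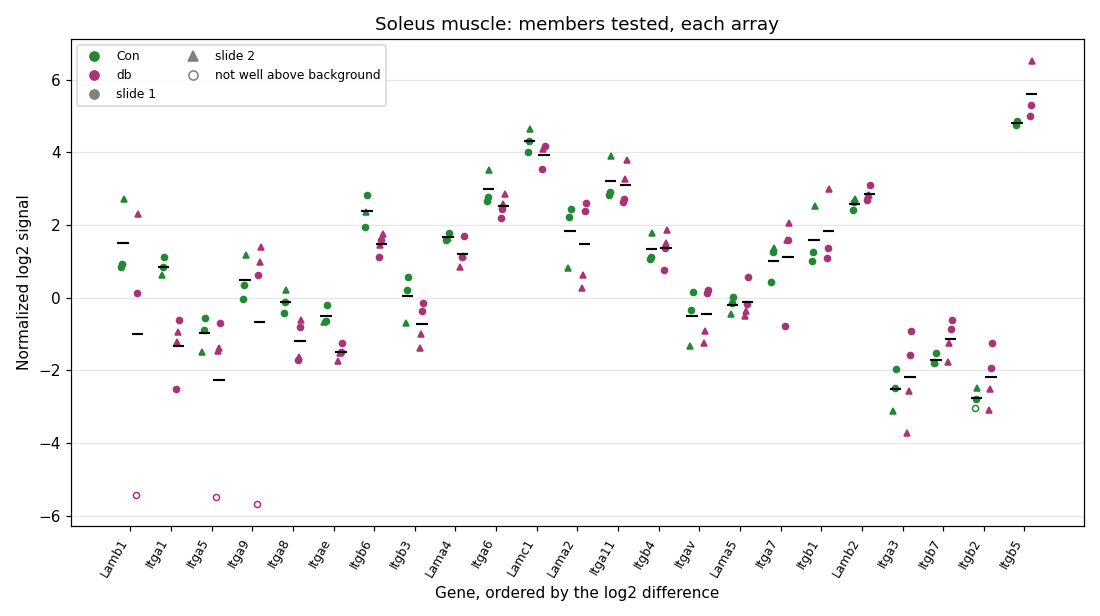
Normalised log2 signal of 23 of the 24 members tested in soleus, 1 symbol per array (green Con, purple db, circles slide 1, triangles slide 2, open where not well above background), with bars at the group means and genes ordered by the log2 difference. Itga1, Itga8, Itgae and Itgb6 lie lower in every db array than in every Con array, and Lama2 is split by slide in both groups.

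The last comparison set Con soleus beside WT C2C12 cells, to show which chains the cell line shares with the muscle. Slide, RNA extraction and cell type cannot be told apart in it, and it shares its samples with both comparisons above. Of 29 members tested, 11 were higher in soleus, 13 lower and 5 did not pass, beside 75.2% of 15065 genes that passed, 37.3% higher and 37.9% lower. The median difference was -0.15 over the members and -0.02 over all genes, and 25 members did not overlap, beside 70.6% of all genes.

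The largest rises in soleus were those of Itga11, Lama4, Itga1, Itga9 and Itga8. Itga11 was between -7.58 and -6.70 (median -7.21) in WT, above background on no array, and was 2.91, 2.83 and 3.91 in Con, at least 486-fold higher (adjusted p = 3.88e-10). Lama4 was between -8.28 and -6.59 (median -7.46) in WT and 1.80, 1.58 and 1.63 in Con, at least 167-fold higher (adjusted p = 3.12e-09). Itga1 was between -8.33 and -6.74 (median -7.94) in WT against the Con values above, at least 94.8-fold higher. All 3 were measured in each Con muscle and not above background in the cells.

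Itga9 was between -8.24 and -7.49 (median -7.91) in WT and -0.02, 0.34 and 1.17 in Con, at least 73.9-fold higher (adjusted p = 9.89e-10). Itga8 was between -8.23 and -5.09 (median -6.47) in WT, above background on 1 of 6 arrays, and was -0.43, -0.13 and 0.21 in Con. Its fitted difference of 6.45 ± 0.59 (log2, SE, adjusted p = 3.18e-06) rests on WT signals that were mostly not above background. With normexp the differences of these 5 genes were smaller, from 3.42 for Itga8 to 6.53 for Itga11 (92.2-fold). The 6 endothelial markers were above background on no WT array and on every Con array. All 6 fibroblast markers were above background on every usable Con spot and 4 of 6 on every WT array, and their mean levels ran from -2.06 to -1.71 in WT and from 4.29 to 4.89 in Con. The part of either in these rises was not tested.

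The other rises were smaller. Itgae was higher by 4.31 ± 0.19, Itgb6 by 2.91 ± 0.24, Itga6 by 2.17 ± 0.19 and Itgb4, its hemidesmosome partner, by 2.15 ± 0.17 (log2, SE). The second Itgb6 probe, above background in both groups, was at -0.17 and did not pass (adjusted p = 0.558), so its probes disagreed. Itgb2 (0.88 ± 0.16, above background on 2 of 3 Con arrays) and Lamc1 (0.58 ± 0.17) passed but did not under quantile normalisation.

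Itgb7, Itga3, Lama5 and Itga7 were among the members lower in soleus. Itgb7 was between 3.21 and 3.63 (median 3.46) in WT and -1.52, -1.81 and -1.78 in Con, 35.6-fold lower (adjusted p = 5.90e-10). Itga3 was between 1.21 and 1.51 (median 1.38) in WT and -2.48, -1.97 and -3.11 in Con, 14.8-fold lower (adjusted p = 8.31e-08), and 7.38-fold with normexp. The groups did not overlap for either gene.

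Lama5 was -0.14, 0.02 and -0.44 in Con, 10.9-fold below WT, and Itga7 was 5.80-fold below it (-2.54 ± 0.20, adjusted p = 1.14e-06). Lama2 (0.45 ± 0.30), Lamb1 (0.14 ± 0.39) and Itgb1 (-0.16 ± 0.28) did not pass (log2, SE, adjusted p from 0.196 to 0.755), nor did Itgb5 and Itgal. Without Con mouse 3, Lama2 (0.96), Itgb1 (-0.62) and Itgal (0.77) passed, though the Itgal probe was above background on no Con array. Itgb5 had no usable spot on Con mouse 3 and stayed at 0.29. It passed there too (limma adjusted p = 0.0215), a call that moved only through the fit over all genes. As means of all their probes Itgb1 was at 2.22 and Itgal at 1.21, and both passed. The Itgb1 mean rests on 1 probe at 8.03 that was above background on no C2C12 array, while the second Itgb1 probe was at -1.23. Itga5 (-2.32 ± 0.19), Itgb3 (-1.61 ± 0.25), Lamb3 (-1.07 ± 0.42) and Lamb2 (-0.38 ± 0.13) were also lower. Lamb3, above background on 2 of 3 Con arrays, did not pass with normexp (-0.19), and Lamb2 did not without Con mouse 2 (-0.29). Itgav was lower at -1.11 ± 0.28 and was at 0.93 when its 6 probes were averaged. All of these but the reported probe were above background on no Con array. The second probe, above background on 5 of 6 WT arrays, was lower too, at -0.69. The lowest signal called above background was -3.97 to -3.30 on Con arrays and -6.14 to -5.20 on WT arrays. Unmeasured probes thus entered that average, and it does not give a direction for Itgav. Itga2b, Itga4 and Itgb8 passed as lower but were above background on no Con array, so no fold is given for them. With normexp they turned to 0.78, 0.85 and 0.69 and passed as higher (adjusted p = 0.0294, 0.0063 and 0.0328).

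**Figure D4:**
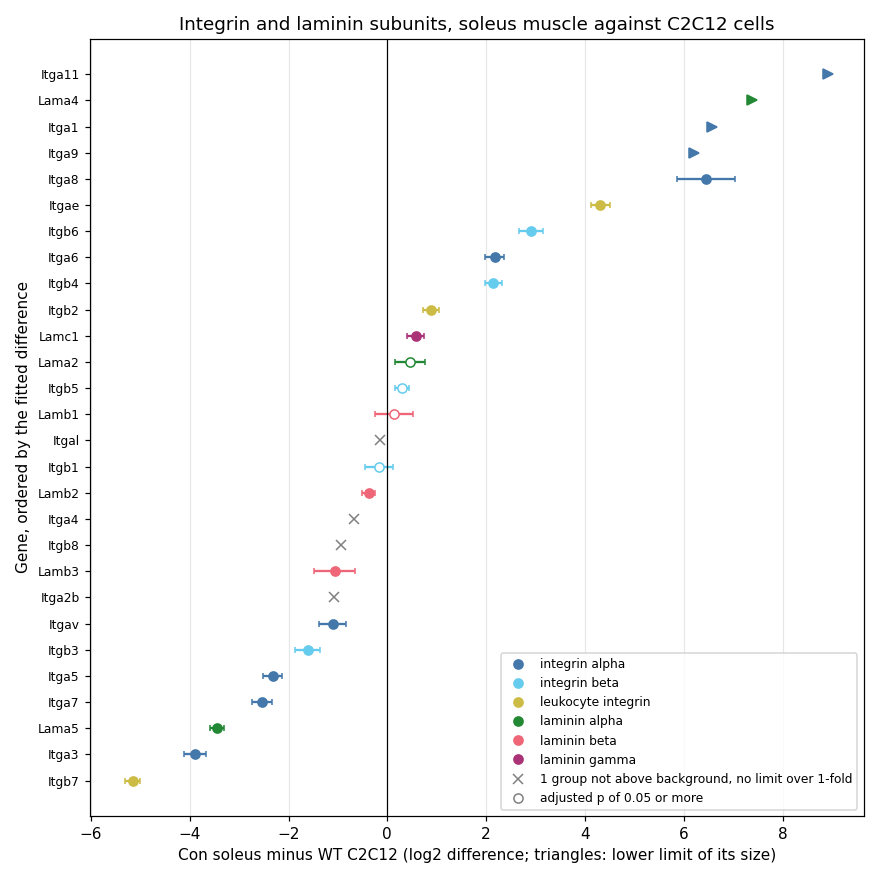
Log2 difference, Con soleus minus WT C2C12, for 28 of the 29 members tested, coloured by chain type, with bars of 1 SE. Triangles mark a lower limit where WT was above background on no array, crosses genes above background on no Con array, and open circles an adjusted p of 0.05 or more; Itga11 lies farthest right and Itgb7 farthest left.

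Among the partners, to be read beside the 37.3% of all genes higher and 37.9% lower, integrin adaptors gave 12 lower and 5 higher of 20 in soleus, with Itgb1bp2 higher by 8.53 ± 0.20 and Tln2 by 2.97 ± 0.21. Parva and Actn1, each above background on 2 of 3 Con arrays, were at -4.96 ± 0.23 and -4.42 ± 0.14 (log2, SE). Basement membrane partners gave 4 higher and 3 lower of 11, with Col15a1, a collagen of the muscle and vessel sheath, at least 127-fold higher, Col4a1 higher by 1.64 ± 0.27, and Nid2 and Col18a1 at -1.01 ± 0.12 and -0.94 ± 0.12. The second Col4a1 probe was at -0.31 and did not pass. Laminin receptors other than integrins gave 3 higher and 4 lower of 7, with Bcam and Sdc4 higher by 4.03 ± 0.28 and 0.92 ± 0.18 and Sdc1 and Sdc3 at -4.38 ± 0.14 and -2.63 ± 0.15. The second Sdc3 probe was at 0.73, the other way (adjusted p = 0.0132). Other ligands gave 4 higher and 6 lower of 10, with Vtn (vitronectin) at least 764-fold higher, Fbln5 higher by 8.22 ± 0.20 over 2 Con arrays, and Vcam1 and Npnt at -4.09 ± 0.19 and -3.59 ± 0.64, Npnt being above background on 1 Con array. With normexp Col15a1 was 31.3-fold, Vtn 165-fold and Fbln5 51.5-fold higher. In db against Con soleus no gene of these 4 lists passed the test.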

How the data were processed

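Per the labelling protocol, total RNA was made into Cy3 cRNA, hybridised to 1-colour Agilent arrays and read with Feature Extraction 9.5.1.1, and the authors deposited the scanner intensity values of 19 arrays and a table of ratio values. At a tolerance of 0.01 log2, 15 of the 19 deposited ratio columns were the processed signal of an array of the same group over a constant. The other 4, all matching soleus arrays of the first slide, were not, and their making is not given in the sources used here. The db columns matched db arrays of other replicate numbers, so the table was used by group only. From the processed intensity, log2 values were taken minus each array's 75th percentile, outlier spots were left out, spots of a probe were averaged, and genes were named by the brightest probe. Of the 41174 probes, 27198 had a symbol in RefSeq. Slides were read from the array identifiers.

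limma 3.58.1 in R 4.3.3 was fitted for each comparison over genes that every array of 1 or both groups measured well above background, with Benjamini-Hochberg adjustment at 0.05. Such a call was read per probe where at least 0.5 of its usable spots had it. The number of arrays limits the precision. Named genes were the 10 members with the largest differences that passed in HDAC4&5 cells, the 5 smallest p in db, the 5 largest rises and falls in soleus against cells, and the 2 largest rises and falls of each partner list. Of the members, 1 is in the counts but is not reported here. Members and lists were chosen with earlier results of these data known. The fit was tested on simulated data with added changes of 1 and 2 log2. It recovered 84% and 98% of them in HDAC4&5 against WT cells and 41% and 82% in Con soleus against WT cells. In db against Con soleus it recovered 3% and 30%, so an absence of calls there does not show an absence of change. Unchanged genes were called too, 14 in HDAC4&5 against WT cells, 7 in Con soleus against WT cells and 6 in db against Con soleus. The simulated noise was drawn separately for each array and held no slide effect. For the replicate numbers, same-number pairs correlated (deviations from group means) from 0.19 to 0.55 in C2C12 and from 0.43 to 0.69 in soleus. Other pairs of the same slide ran from 0.19 to 0.53 and from 0.33 to 0.74. Pairs on different slides ran from -0.47 to 0.05 and from -0.69 to -0.40, so arrays of a slide went together. Alternatives were other normalisations, filters, probe choices, blocks, tests, slides and left-out arrays. No 2 arrays of a group were identical.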

Additional observations from a re-analysis of the deposited data

Results flagged for a closer look

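Among the named genes, 109 groups of 4 to 6 arrays were examined for a single array far from the others, and 5 were found, where chance alone gives about 1 in 20. For Itga7 in db soleus, replicate 1 was at -0.78 and the other 3 db arrays lay between 1.59 and 2.06. For Itgb2 in WT cells, replicate 5 was at -3.33 and the others lay between -3.76 and -3.64. The rest were partner genes in C2C12 cells. Actn1 was at 0.12 in HDAC4&5 replicate 6 against 0.62 to 0.87 in the others, Npnt at -1.83 in WT replicate 6 against -0.92 to -0.39, and Rpsa at 5.33 in WT replicate 3 against 6.10 to 6.36.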

How the results depend on the processing

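In HDAC4&5 against WT cells 16 to 23 members passed under the alternatives run, and 22 without any 1 array, with the slide block and with the replicate block. These totals were taken without regard to direction. In the deposited ratios Itgb6 and Itga4 turned to rises, each from the 1 HDAC4&5 array listed. In db against Con soleus 0 passed under every adjusted alternative, the replicate block and left-out arrays included, and 4, all lower, at an unadjusted p by limma or by the methods' t-test. In Con soleus against WT cells the count was 23 to 28 without 1 Con array (11 to 14 higher, 12 to 14 lower), and 14 (5 higher) when both groups had to be above background, which tests fewer genes. The number higher was 6 in the deposited ratios and 17 without a filter. No paired analysis was possible for that comparison because cells and mice share only a number.

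Over the named genes 1313 values kept direction and call, 32 kept direction and lost the call, and 22 reversed; the cause was not tested. In HDAC4&5 against WT cells, normexp turned Itgae to 0.32 and Itgal to 0.27. The deposited ratios turned Itgb6 to 0.76, Itga4 to 0.90 and Col4a5 to 1.69. The mean of all probes turned Itgae to 0.10, Itgav to 0.41 and Agrn to -1.28, and the second probe turned Itgae to 0.96, Itgav to 0.67, Agrn to -0.10 and Sdc2 to 0.066. In Con soleus against WT cells, normexp turned Itga2b to 0.78, Itgb8 to 0.69 and Itga4 to 0.85. The mean of all probes turned Itgav to 0.93, Itgb8 to 0.085 and Itga4 to 0.93, and the second probe turned Itgb6 to -0.17, Itga4 to 1.51, Col4a1 to -0.31 and Sdc3 to 0.73. The median difference of all genes there moved to -0.29 with quantile normalisation, 0.24 with normexp and -0.30 in the deposited ratios. Second probes and single slides were chosen after seeing the data. Signals near background limit Itga4, Itgb8, Itgae and Itgal.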
